A study of Mus musculus with 186 samples.

Results

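The genes described here are named as genes of oxidative phosphorylation, and not every one of them encodes a subunit. They were chosen by symbol: names starting with Nduf followed by a, b, c, s or v and a digit, the 4 succinate dehydrogenase genes Sdha to Sdhd, names starting with Uqcr, Cox followed by a digit from 4 to 8, or Atp5, and the mitochondrial genes whose names start with mt-Nd, mt-Co, mt-Cytb or mt-Atp, leaving out names with -ps. The rule uses symbols alone, but the set was chosen with earlier results of these data known. The rule found 97 of the 28338 gene symbols in the count table, 84 of them nuclear and 13 carried by the mitochondrial genome (mt). The genes were sorted into complexes by symbol alone. There were 44 genes of complex I (37 nuclear and 7 mt), 4 of complex II, all nuclear, 9 of complex III (8 and 1), 21 of complex IV (18 and 3) and 19 of complex V (17 and 2).

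Bulk RNA was sequenced from brains of Akap11 mutant mice, in which the gene for an anchoring protein of protein kinase A is disrupted. The 186 libraries came from 6 regions (thalamus, substantia nigra, striatum, hippocampus, and the prefrontal and somatosensory cortex), at 4 or 12 weeks of age and from 3 genotypes: WT, Akap11 +/- (here heterozygote) and Akap11 -/- (here knockout). There were 36 groups, of which 30 held 5 libraries and 6 held 6, and no group carried a treatment. The labels state no strain, sex, kind of Akap11 allele or pooling of tissue. They also do not say whether the libraries of a group came from separate animals, so the p-values measure the spread between these libraries, which may be technical.

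The respiratory chain passes electrons from NADH (complex I) or succinate (complex II) through ubiquinone to complex III and through cytochrome c to oxygen at complex IV. Complexes I, III and IV pump protons across the inner mitochondrial membrane, and complex V (ATP synthase) uses the gradient to make ATP. Most subunits are encoded in the nucleus and imported, while a small set of core subunits is transcribed from mitochondrial DNA, so each complex except complex II needs both genomes. In brain most ATP comes from this pathway, and much of it is spent on ion pumping after synaptic and action potentials.

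Promoters of the nuclear genes are shown because the genes moved together between regions and share motifs that the choice by symbol did not use. The RefSeq promoter table (GRCm38.p6, 250 bases before to 50 after each start) held entries for 66 of the 84 nuclear genes. Among the unmatched were Atp5a1, Atp5f1, Atp5s, Atp5sl, Cox4i1, Cox4i2, Cox6a2, Cox6c, Cox8c, Ndufa2, Ndufa4l2, Ndufb9, Ndufs1, Sdhc, Uqcrb, Uqcrc2 and Uqcrq. Both strands were searched for 5 motifs. The NRF1 motif GCGCANGCG was in 20 of the 66 genes (30.3%), against 7.03% of the 27025 genes with a promoter of that length. The ETS motif CCGGAAG was in 16 (24.2% against 9.93%), and the YY1 motif AANATGGCG in 10 (15.2% against 2.76%). The Sp1 motif GGGCGG was in 26 (39.4% against 38.2%), and the ERR motif TCAAGGTCA in 2 (3.03% against 0.466%). At least 1 of the 5 motifs was in 51 genes, the motifs can overlap one another, and the median GC content was 57.3% in these promoters and 52.7% in all. The 150 bases before the start of 3 genes, each in the sense of its gene, show the NRF1 and ETS matches in capitals. These 3 were picked per complex for the most NRF1, ETS and YY1 matches in those bases, with ties settled by name. The candidates were genes with 1 promoter entry that were called higher in thalamus at both ages, so the examples are not typical of the set. Ndufa11 lies at chr17:56717612-56717761 (plus strand), Sdhd at chr9:50603850-50603999 (minus strand) and Uqcrh at chr4:116075071-116075220 (minus strand).
Ndufa11: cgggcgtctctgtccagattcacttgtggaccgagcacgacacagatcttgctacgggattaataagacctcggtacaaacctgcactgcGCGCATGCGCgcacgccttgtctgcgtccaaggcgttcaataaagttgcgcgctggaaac
Sdhd: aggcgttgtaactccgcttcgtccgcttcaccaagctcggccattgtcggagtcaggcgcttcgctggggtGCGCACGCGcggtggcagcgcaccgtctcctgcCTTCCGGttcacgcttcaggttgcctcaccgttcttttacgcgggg
Uqcrh: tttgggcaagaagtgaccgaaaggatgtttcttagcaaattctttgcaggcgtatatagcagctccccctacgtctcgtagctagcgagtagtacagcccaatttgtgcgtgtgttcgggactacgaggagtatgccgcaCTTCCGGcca
In Ndufa11, a supernumerary membrane subunit of complex I, 2 NRF1 matches on opposite strands overlapped, from 60 to 52 and from 59 to 51 bases before the start. In Sdhd, a membrane anchor of complex II, an NRF1 match lay 79 to 71 bases and an ETS match, on the opposite strand, 46 to 40 bases before the start. In Uqcrh, the hinge subunit of complex III, an ETS match on the opposite strand lay 10 to 4 bases before the start. These matches describe the letters and not the binding of a factor.

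Library totals ran from 20.8 M to 73.3 M (mega) counts with a median of 45.1 M, and none of the 390 pairs of libraries within a group agreed within sampling noise (lowest chi-square per degree of freedom 8.36). Akap11 itself was lower in the knockout in 12 of 12 comparisons (log2 fold change -4.30 to -3.65, largest adjusted p 1.95e-05) and in the heterozygote in 10 of 12, by edgeR's quasi-likelihood test with Benjamini-Hochberg adjustment. One 4-week substantia nigra library stood apart in Akap11. The library labelled WT 92 had 43.56 CPM of Akap11 (CPM, counts scaled to the same library total). The other WT libraries of that group had 195.3 to 241.5 CPM. Heterozygote libraries of this region and age had 96.45 to 137.6 CPM and knockout libraries 13.36 to 15.75 CPM. The value of WT 92 lay in none of these ranges. Its nuclear oxidative phosphorylation share (2.397% of counts) also stood apart from the other WT libraries (1.075% to 1.301%). Whether the library was mislabelled, mixed or poor was not tested. A set of 16 libraries, all from the younger age, held few whole numbers: these (within 1e-06) made up no more than 5.55% of their values above 0, against at least 17.3% in the others. Of these 16, 14 exceeded in the nuclear share, and 9 in the mt share, every library of their group that was not among the 16, so counts at 4 weeks are given with and without them. In 10 libraries at 4 weeks, chosen after the data were seen, cell type markers stood apart from the rest of the group (in WT substantia nigra, for example, the dopamine neuron score ran from 2.59 to 7.42, against 7.60 to 8.06 at 12 weeks). Scores also differed within groups at 12 weeks. In WT thalamus the parvalbumin interneuron score was 6.37 and 6.61 in libraries 1 and 4 and 4.09 to 5.1 in the rest. Heterozygote somatosensory library 5 had a striatal projection neuron score of 6.03 (others 3.72 to 3.9). A score is the mean log2(CPM + 1) of a marker list.

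The mt transcripts far outnumbered the nuclear ones. Per kilobase of transcript, the mean over WT libraries was 8128 CPM for mt-Co1, the catalytic core of complex IV, 4775 for mt-Atp6 (proton channel of complex V), 3948 for mt-Cytb (the mt subunit of complex III) and 2720 for mt-Nd1. The lowest of the mt genes was mt-Nd6 at 39.65, which is transcribed from the opposite strand to the others. The highest nuclear gene per kilobase within its complex was Atp5b in complex V (694.9, the catalytic beta subunit), Cox8a in complex IV (447.6) and, by name, Ndufa4 in complex I (262.5, named as a complex I subunit but now usually assigned to complex IV). In complex III it was Uqcrh (221.3) and in complex II Sdha (151.8), the flavoprotein. The median gene stood at 73.01 in nuclear complex I and at 131.9 in nuclear complex V. At the low end were tissue-restricted isoforms: Cox8c had at most 0.0208 CPM in any library, was at 0 in 183 of 186 and passed the low-count filter in 0 of 50 comparisons, Cox8b passed in 28 and Cox7b2 in 42. The mt genes overlap in places, by 43 bases for mt-Atp6 and mt-Atp8, and by 7 for mt-Nd4 and mt-Nd4l, and counts in these stretches cannot be told apart. The genes mt-Nd5 and mt-Nd6 overlap by 14 bases on opposite strands, and the labels do not say whether counting used strand. That makes mt-Atp8 and mt-Nd4l uncertain.

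As a share of all counts the nuclear genes followed the region more than the genotype. At 12 weeks, over all 15 libraries per region, they made up 1.351% ± 0.0734 (SD, n = 15) of counts in thalamus and 1.247% ± 0.0499 in substantia nigra. The other regions lay lower, at 0.9715% ± 0.0439 in somatosensory cortex, 0.9449% ± 0.0461 in striatum, 0.9357% ± 0.0493 in hippocampus and 0.8873% ± 0.0517 in prefrontal cortex. Every library of thalamus (1.224% to 1.516%) and substantia nigra (1.137% to 1.324%) was above every library of these 4 regions, whose highest was 1.081%. The mt genes had another order and a wider spread. They made up 4.718% ± 0.873 in thalamus, 4.489% ± 0.797 in striatum and 4.442% ± 0.722 in substantia nigra, then 3.68% ± 0.442 in prefrontal cortex, 3.227% ± 0.626 in hippocampus and 3.198% ± 0.434 in somatosensory cortex, and neighbours in this order overlapped. Striatum had the highest ratio of mt to nuclear counts, 4.751 ± 0.795 at 12 weeks and 4.892 ± 1.01 at 4 weeks. Thalamus had the lowest at 4 weeks (2.491 ± 0.558, n = 16) and 3.506 ± 0.71 at 12 weeks. In tissue, more cells of a type and more RNA per cell cannot be told apart.

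**Figure D1:**
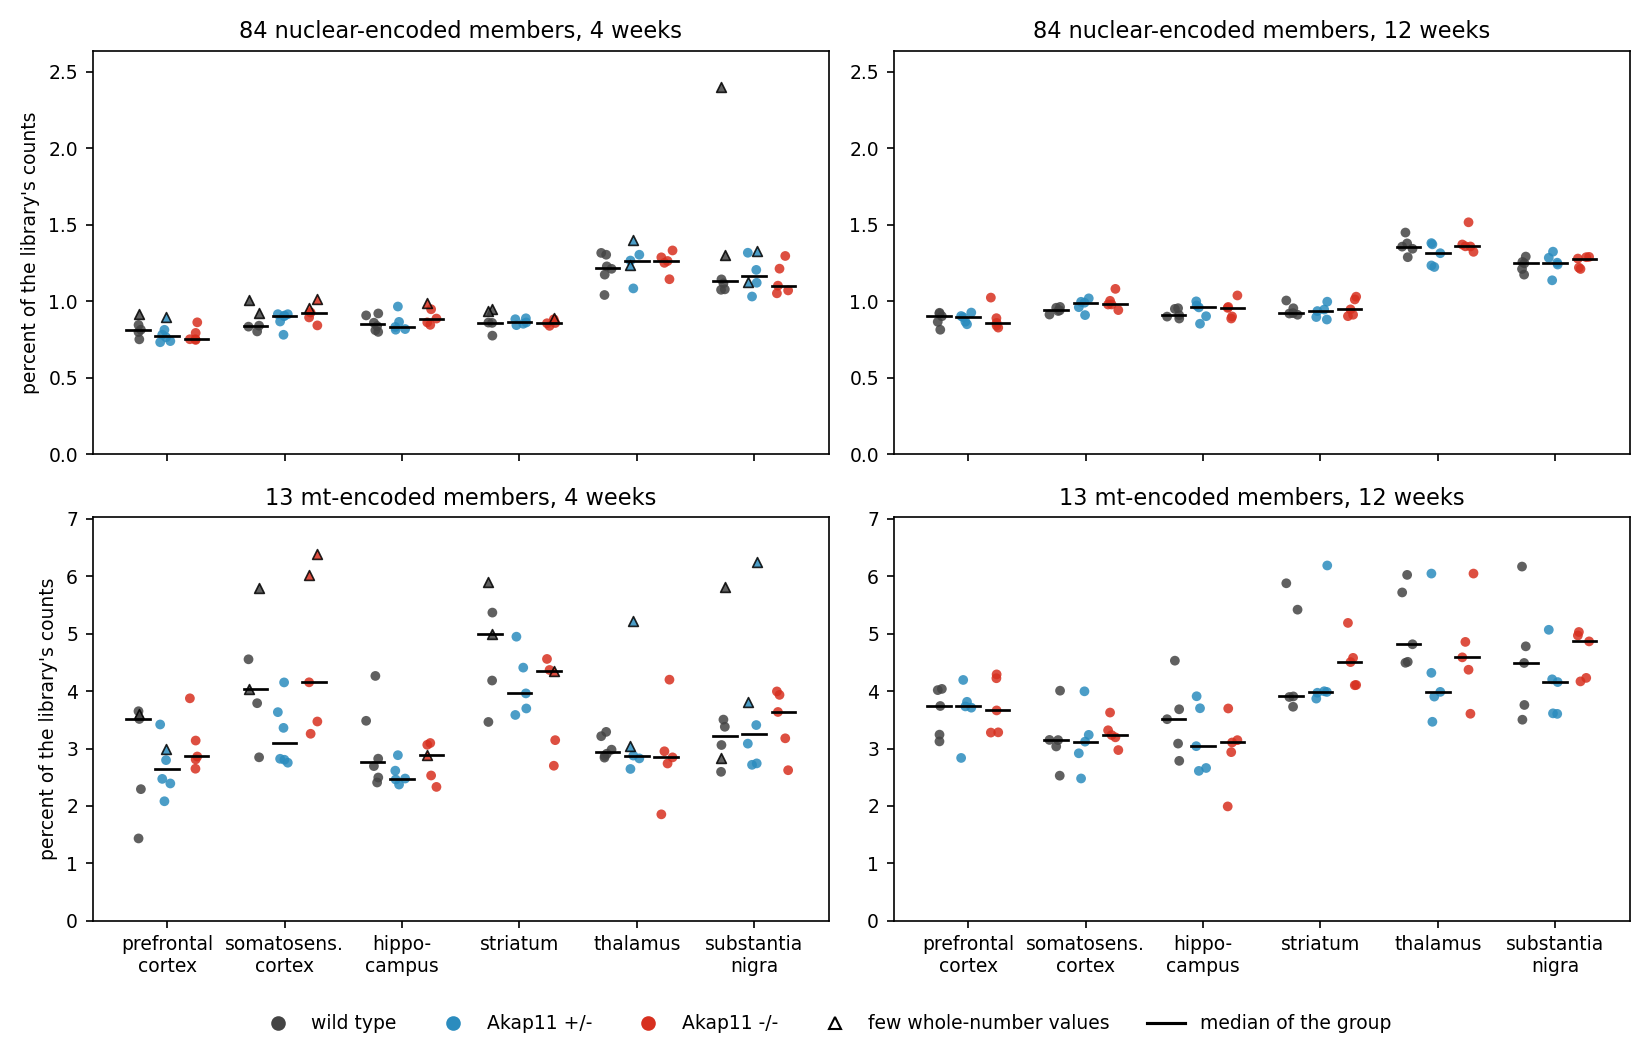
Percent of each library's counts in the 84 nuclear (top) and 13 mt genes (bottom), by region, at 4 (left) and 12 weeks (right). Points are libraries coloured by genotype, bars are group medians and outlined triangles are the 16 libraries with few whole numbers. At 12 weeks every thalamus library (1.224% to 1.516% nuclear) and every substantia nigra library lies above those of the other regions. The highest triangle in the upper left panel is the substantia nigra library labelled WT 92 (2.397%).

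The regions were compared in WT, each against the mean of the other 5, in 1 fit per age. The 6 comparisons of an age share all their libraries, so what is higher in one region lowers the others. Calls were made below an adjusted p of 0.05 (edgeR quasi-likelihood, Benjamini-Hochberg over all genes tested). At 12 weeks thalamus had 89 of 96 tested genes higher and 0 lower, while 66.9% of all genes were called in either direction. Substantia nigra had 59 higher and 6 lower (67.8% of all genes). Prefrontal cortex had 0 higher and 73 lower (57%), somatosensory cortex 1 and 63 (56.4%), hippocampus 2 and 68 (54.4%) and striatum 16 and 39 (67.3%). The share of the set that was called exceeded that of all genes in thalamus, prefrontal cortex, hippocampus and somatosensory cortex, was near it in substantia nigra and was below it in striatum. The median log2 fold change of the 83 nuclear genes tested was +0.56 in thalamus, +0.23 in substantia nigra, -0.11 in striatum, -0.15 in somatosensory cortex, -0.21 in hippocampus and -0.28 in prefrontal cortex, with the median of all genes within 0.033 of 0. All 8 genes of the oligodendrocyte list also differed by region: their summed level ran from 7600 to 12500 CPM in thalamus and 11400 to 14500 in substantia nigra, 5250 to 6930 in striatum, 4410 to 6620 in hippocampus, 2080 to 2370 in somatosensory cortex and 626 to 904 in prefrontal cortex. The part of these cells in the differences was not tested.

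All 5 complexes were higher in thalamus at 12 weeks. Sorted by symbol, all 37 nuclear complex I genes, all 4 of complex II, all 8 of complex III and all 17 of complex V were called higher, with medians of +0.51, +0.27, +0.52 and +0.56. In complex IV 14 of 17 tested genes were called higher, with a median of +0.69. The nuclear genes not called were Cox6b2 (-0.01), Cox7a2l (+0.09) and Cox8b (+0.47). Of the mt genes, 9 of 13 were called higher, with a median of +0.41. In 36 of the 97 genes the lowest thalamus library was above the highest WT library of any other region at 12 weeks. These 36 were spread over complexes I, III, IV and V and included Atp5b, Cox4i1, Ndufs1 and Uqcrb. No gene of the set did so in any region at 4 weeks. The same count was not made over all genes, of which 66.9% were called in thalamus at 12 weeks.

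Ndufa10, an accessory subunit of complex I, had the smallest adjusted p of the set in thalamus at 12 weeks. At 12 weeks its level was 273, 284, 288, 292 and 294 CPM in the thalamus libraries. The other regions ranged from 121 CPM (striatum) to 176 CPM (substantia nigra), so no library overlapped. The log2 fold change was +1.03 ± 0.035 (SE, 2.04-fold, adjusted p = 8.64e-21, edgeR). At 4 weeks Ndufa10 in thalamus ran from 184 through a median of 264.5 to 316 CPM, with a log2 fold change of +0.85 ± 0.14. Here substantia nigra libraries 914 (190 CPM) and 42 (215 CPM) fell within the thalamus range, and the library labelled WT 92 (469 CPM) lay above it.

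Cox7b, a small nuclear subunit of complex IV, was higher by as much. Its thalamus libraries had 175, 202, 217, 223 and 228 CPM at 12 weeks, and the next region, substantia nigra, had 126 to 152 CPM. The log2 fold change was +1.03 ± 0.0585 (adjusted p = 1.82e-15, edgeR) at 12 weeks and +0.70 ± 0.14 at 4 weeks. Cox7b was lower than the mean of the other regions in hippocampus (-0.44 ± 0.065) and striatum (-0.44 ± 0.066) at 12 weeks. Atp5b, the catalytic subunit of complex V, had 1690, 1760, 1800, 1910 and 1960 CPM in thalamus at 12 weeks. It did not exceed 1510 CPM in any other region, and its log2 fold change was +0.67 ± 0.04 (adjusted p = 6.86e-15, edgeR). The c-ring of complex V is encoded by 3 genes with the same mature protein: in 12-week thalamus Atp5g1 was higher by +0.64, Atp5g3 by +0.49 and Atp5g2 by +0.17.

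Complex IV has subunits with paired isoforms, one broadly expressed and one named for heart, muscle or testis, and these showed the widest regional differences of the set. Cox6a2, the heart and muscle form of subunit VIa, had 19.9, 24.6, 34.4, 37.4 and 39 CPM in thalamus at 12 weeks. It had 9.77 to 11.8 CPM in somatosensory cortex, 3.58 to 4.53 in striatum, 2.03 to 3.26 in prefrontal cortex, 1.46 to 2.99 in hippocampus and 0.172 to 0.817 in substantia nigra. Thalamus was above and substantia nigra below every other library. Somatosensory cortex and striatum did not overlap with each other or with the lower regions, while prefrontal cortex and hippocampus overlapped. The log2 fold change of Cox6a2 was +3.67 ± 0.14 in thalamus (12.7-fold, adjusted p = 2.54e-19, edgeR), +1.79 ± 0.16 in somatosensory cortex and -4.07 ± 0.26 in substantia nigra at 12 weeks. Per transcript length Cox6a2 made up a median of 8.85% of Cox6a1 plus Cox6a2 in thalamus, 4.27% in somatosensory cortex and 0.101% in substantia nigra.

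At 4 weeks Cox6a2 again led in thalamus, from 11.4 through a median of 31.86 to 43.3 CPM, with a log2 fold change of +2.83 ± 0.39 (adjusted p = 5.36e-07, edgeR). Hippocampus library 23, with 16.9 CPM of Cox6a2, fell within the thalamus range, and substantia nigra library 42, with 8.59 CPM, lay below it, while the lowest library of each region had 1.47 and 0.0542 CPM. The same 2 libraries had the highest thalamic neuron score of their groups, 7.12 in hippocampus (lowest 3.85) and 8.14 in substantia nigra (lowest 4.34), against 7.97 to 9.21 in thalamus, and library 42 had the lowest dopamine neuron score of its group (2.59). Whether thalamic tissue entered these libraries was not tested.

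**Figure D2:**
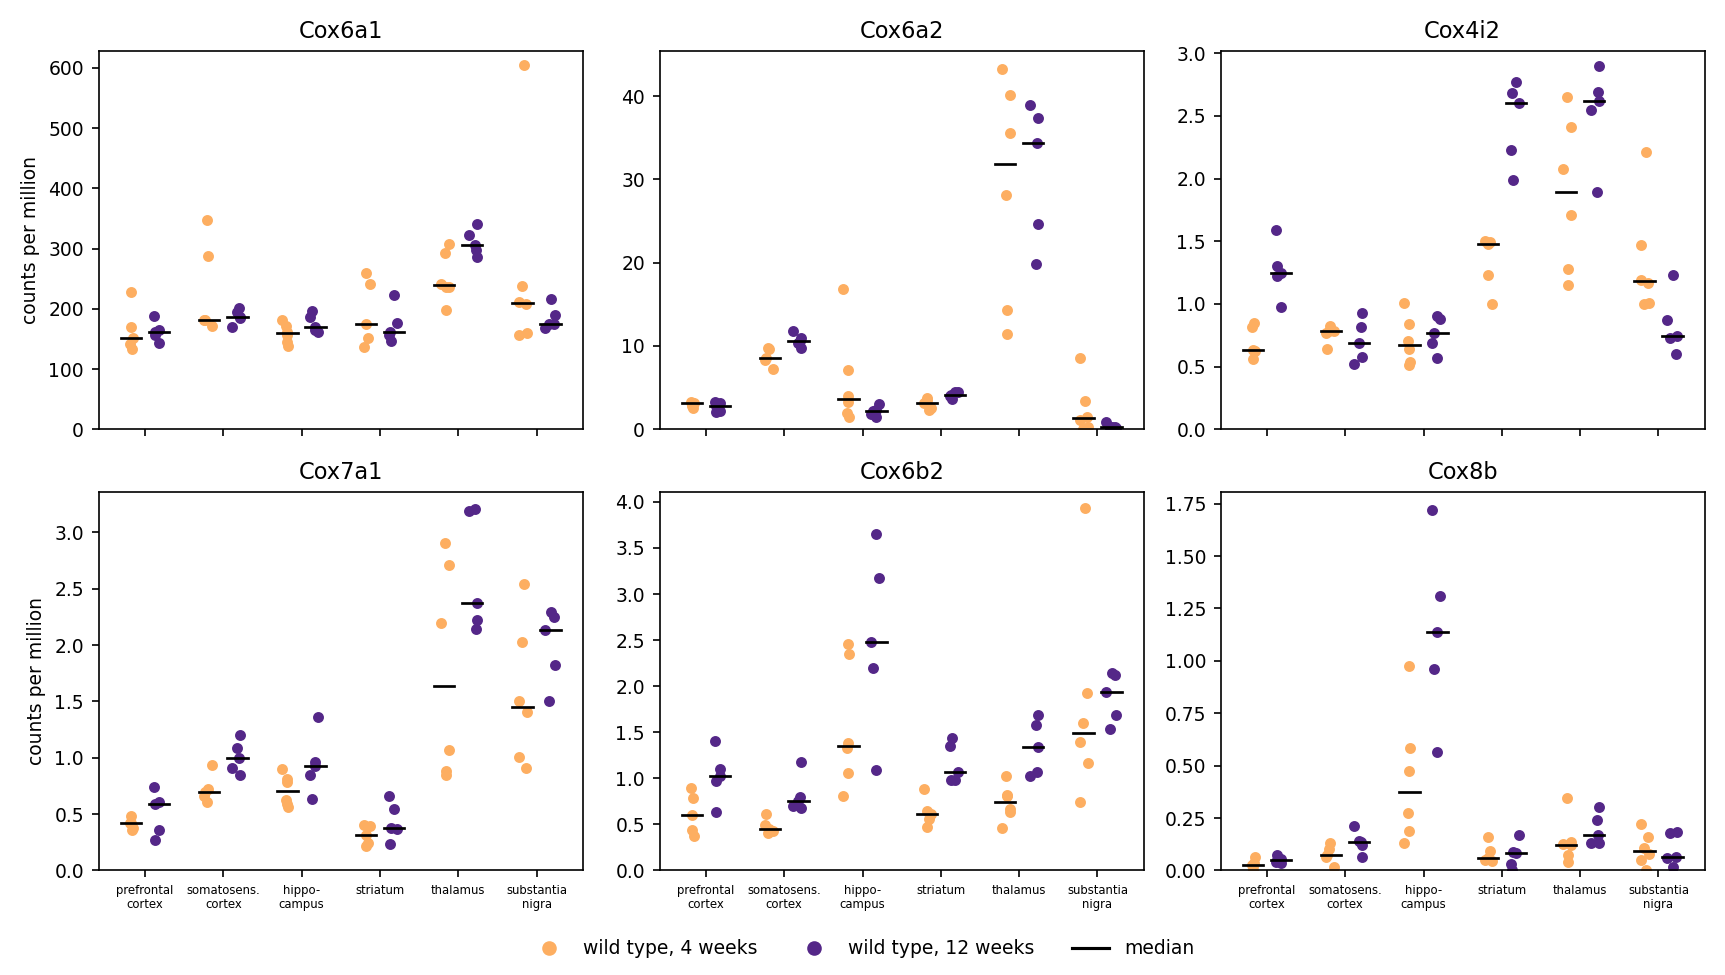
Level in CPM of Cox6a1 and of 5 tissue-restricted complex IV isoforms in the WT libraries of each region at 4 (orange) and 12 weeks (purple), with linear axes from 0 that differ between panels. Points are libraries and bars medians. Cox6a2 reaches 19.9 to 39 in 12-week thalamus and at most 0.817 in 12-week substantia nigra, while Cox8b is highest in hippocampus at both ages.

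The other complex IV isoforms each had their own regional order, at levels of a few CPM or less. Cox7a1, the heart and muscle form of subunit VIIa, had 2.14, 2.22, 2.37, 3.19 and 3.21 CPM in thalamus and 1.5, 1.82, 2.13, 2.25 and 2.29 CPM in substantia nigra at 12 weeks. Both regions were above the highest library elsewhere, a hippocampus library with 1.36 CPM. The log2 fold changes of Cox7a1 at 4 and 12 weeks were +1.47 and +1.65 in thalamus, +1.23 and +1.19 in substantia nigra, -1.06 and -1.20 in prefrontal cortex and -1.45 and -1.47 in striatum, all called. Cox4i2, a form of subunit IV known from lung and from oxygen-responsive cells, had 1.99, 2.23, 2.6, 2.68 and 2.77 CPM in striatum at 12 weeks. Its thalamus libraries overlapped these (1.89 to 2.9 CPM), and the other regions stayed at or below 1.59 CPM. The changes of Cox4i2 at 4 and 12 weeks were +1.03 and +1.25 in thalamus, +0.47 and +1.19 in striatum, -0.54 and -0.98 in somatosensory cortex and -0.67 and -0.84 in hippocampus, all called. In substantia nigra the call turned from +0.41 at 4 weeks to -0.65 at 12 weeks.

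Hippocampus was low in most of the set but higher in Cox6b2 and Cox8b. Cox6b2, the testis form of subunit VIb, had 1.09, 2.2, 2.48, 3.17 and 3.65 CPM in hippocampus at 12 weeks, overlapping substantia nigra at 1.54 to 2.14 CPM. Its log2 fold changes were +1.03 at 4 weeks and +1.06 at 12 weeks in hippocampus. They were +1.25 and +0.59 in substantia nigra, and -0.99 and -0.89 in somatosensory cortex. Cox8b, the heart and muscle form of subunit VIII, had 0.566, 0.963, 1.14, 1.31 and 1.72 CPM in hippocampus at 12 weeks. No other region exceeded 0.305 CPM, and the log2 fold change was +3.47 ± 0.28 (adjusted p = 1.34e-11, edgeR). Choroid plexus markers moved with Cox8b: all 6 were above 0 in every 12-week hippocampus library, where their summed level was 629 to 3600 CPM against at most 25.3 in the other WT groups at that age. Their part in the Cox8b level was not tested. Cox7b2, a further testis form, was higher in thalamus at both ages (+1.40 and +1.29), at a level that did not exceed 0.805 CPM in any library.

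Substantia nigra had its own leading genes. Sdha had 554, 568, 572, 587 and 606 CPM there at 12 weeks and at most 512 CPM in any other WT library, with a log2 fold change of +0.49 ± 0.032 (adjusted p = 3.47e-14, edgeR). Cox7a2l, a factor that joins complexes III and IV into supercomplexes, was the other gene whose substantia nigra libraries (144 to 161 CPM) were all above the rest (highest 139 CPM). Ndufb8, a complex I membrane-arm subunit, had 143, 145, 154, 160 and 168 CPM and was higher by +0.63 ± 0.058, though thalamus (152 to 195 CPM) was higher still. Against this, Ndufs3, a core subunit of the complex I peripheral arm, was lower in substantia nigra (-0.29 ± 0.042, 77.1 to 90 CPM). Cox8a was lower there too (-0.31 ± 0.07), as were Cox6a2, Cox4i2, Cox7b2 and Ndufs4.

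Striatum differed between the genomes. At 12 weeks 6 of its 13 mt genes were higher and 0 lower (median +0.33), while 10 nuclear genes were higher and 39 lower. The mt gene mt-Cytb had 5010, 5090, 5410, 6650 and 7820 CPM in striatum. That was above the highest library of somatosensory cortex (4670 CPM) and prefrontal cortex (4410 CPM), but overlapped thalamus (5240 to 6440 CPM). Its log2 fold change was +0.51 ± 0.1 (adjusted p = 6.64e-05, edgeR). Among the higher nuclear genes were Ndufs3 (+0.45 ± 0.04, 124 to 144 CPM), Ndufb10 (+0.29), Ndufs4 (+0.27), Ndufa1 (+0.32) and Atp5g2 (+0.20), one of the genes for the c-ring of complex V. The lower nuclear genes included Ndufb8 (-0.42 ± 0.063), Ndufb6 (-0.42 ± 0.063) and Cox7b, so subunits of the same complex moved in opposite directions.

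The 3 regions with the lowest nuclear share had few exceptions. In prefrontal cortex Sdhc, a membrane anchor of complex II, had 50.9, 54.2, 55, 57.4 and 59.6 CPM at 12 weeks. Every other WT library at that age had at least 61.5 CPM, and the log2 fold change was -0.50 ± 0.047 (adjusted p = 2.22e-10, edgeR). Ndufa1, a small accessory subunit of complex I, was lower there by -0.47 ± 0.064 and Atp5b by -0.44 ± 0.04. In hippocampus Cox5a, a nuclear subunit on the matrix side of complex IV, was lower by -0.49 ± 0.065 (81.7 to 98 CPM). In somatosensory cortex 10 of 13 mt genes were lower, among them mt-Nd3 (-0.68 ± 0.23), mt-Co3 (-0.49 ± 0.15) and mt-Nd4l (-0.49 ± 0.12), and Cox6a2 was the single gene called higher.

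**Figure D3:**
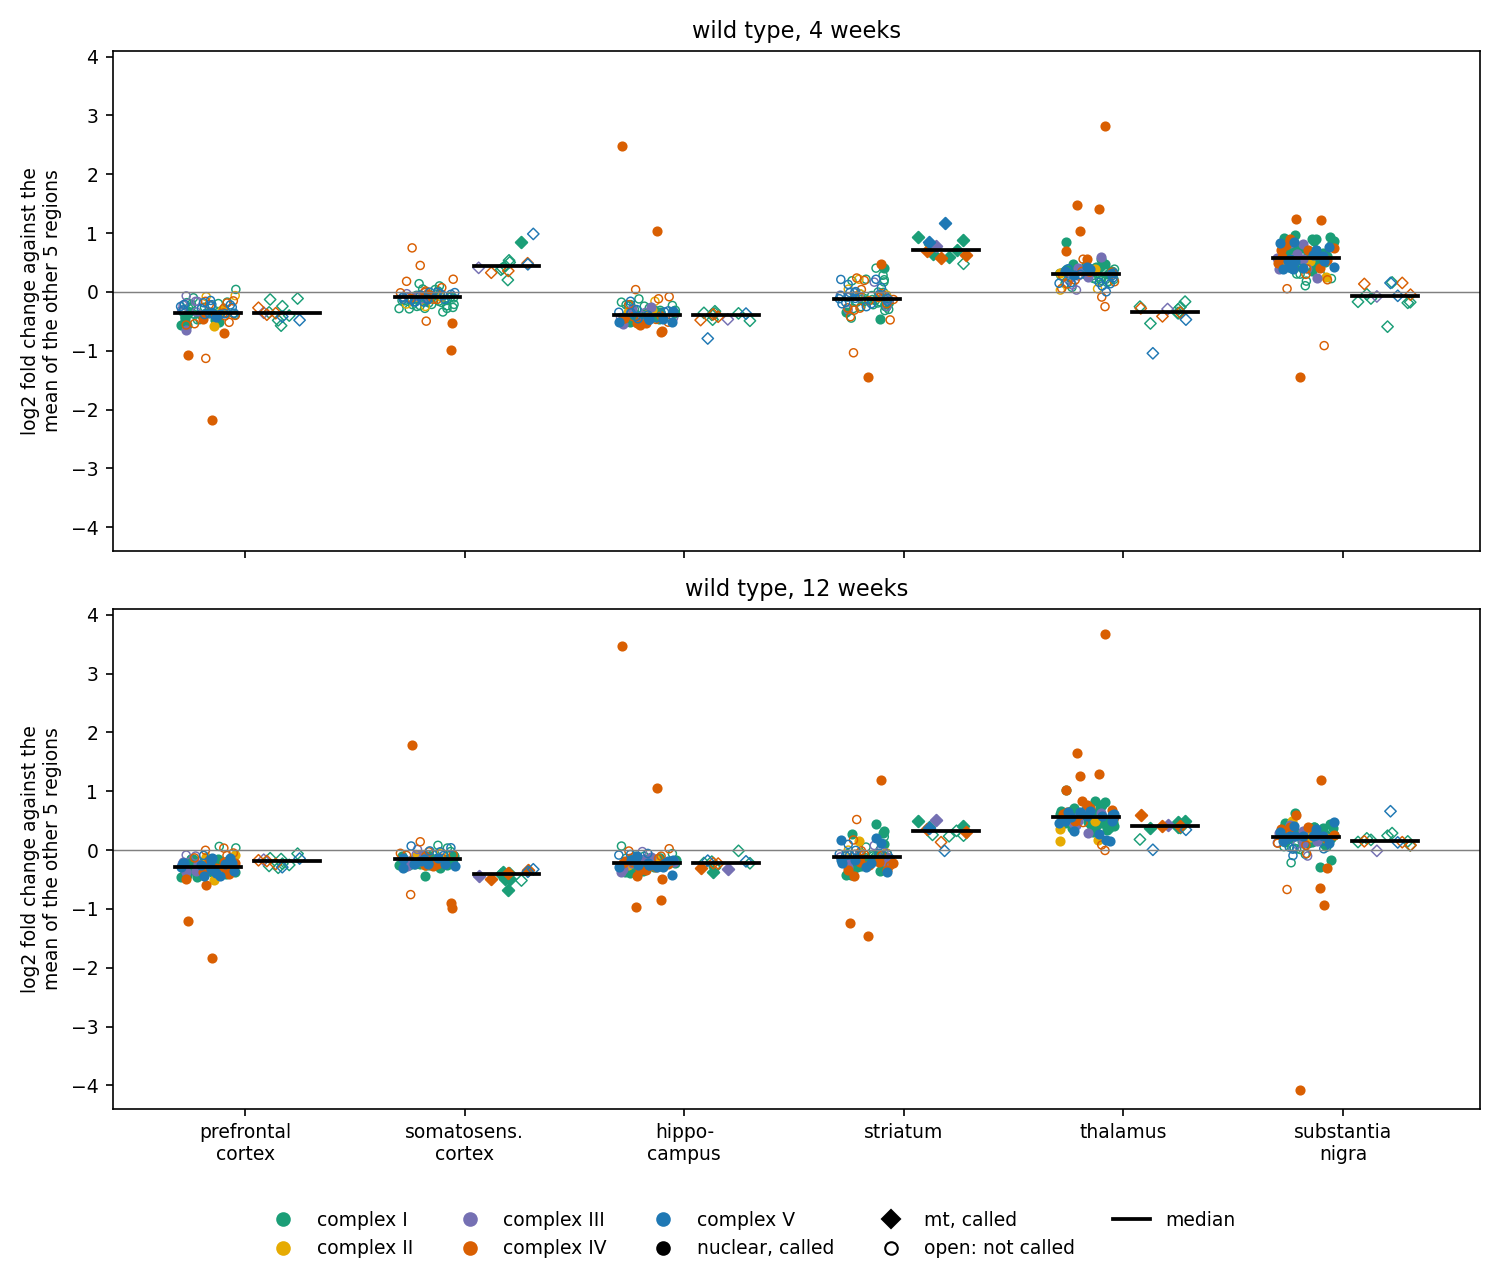
Log2 fold change of each tested gene of the set in WT, each region against the mean of the other 5, at 4 (top) and 12 weeks (bottom). Circles are nuclear and diamonds mt genes coloured by complex, filled where called, and bars are medians. At 12 weeks the nuclear median is +0.56 in thalamus and -0.28 in prefrontal cortex, and the point at +3.67 in thalamus is Cox6a2.

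At 4 weeks fewer genes were called, and the count rested on single libraries. Thalamus had 31 higher and 0 lower (48.1% of all genes called in either direction), and substantia nigra 69 and 1 (59%). Prefrontal cortex had 0 and 19 (43%), somatosensory cortex 1 and 2 (38.4%), hippocampus 2 and 31 (36.4%) and striatum 14 and 3 (52.9%). Without the substantia nigra library labelled WT 92 the counts called were 68 in thalamus, 51 in substantia nigra, 69 in hippocampus, 27 in striatum, 8 in somatosensory cortex and 38 in prefrontal cortex. The nuclear median in substantia nigra then went from +0.58 to +0.26. The shares of all genes above belong to the fits with every library. Those of the refits here and below are not given, so the refit counts cannot be set against them. Without the libraries with few whole numbers, thalamus had 79 higher, prefrontal cortex 62 lower, somatosensory cortex 24 lower, hippocampus 2 higher and 54 lower and striatum 15 higher and 30 lower. Without the libraries whose markers stood apart, thalamus had 70 higher, substantia nigra 41 higher and 2 lower, prefrontal cortex 37 lower, somatosensory cortex 4 higher and 5 lower, hippocampus 2 higher and 66 lower and striatum 11 higher and 15 lower. The mt genes at 4 weeks had an order of their own, with 12 of 13 called higher in striatum (median +0.71), 1 in somatosensory cortex (+0.44) and 0 in thalamus (-0.35). In striatum mt-Nd4l (+0.94 ± 0.28), mt-Nd4 (+0.88 ± 0.21) and mt-Cytb (+0.78 ± 0.19) were among them.

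Leaving out other single WT libraries at 4 weeks also moved these counts by over 1.5 times. In hippocampus the count was 16 without hippocampus library 142, 913, 914 or 92 and 12 without 42. In prefrontal cortex it was 9 without prefrontal library 142, 10 without 913, 11 without 23 or 92 and 33 without 914. In thalamus it was 16 without thalamus library 23, 17 without 142 and 19 without 42, 914 or 92. In striatum it was 11 without striatum library 92. In somatosensory cortex it was 5 without its library 23, 1 without its library 913 and 7 without substantia nigra library 914. In both ages the same direction was called for 31 genes higher in thalamus and for 58 higher and 1 lower in substantia nigra, where 1 gene (Cox4i2) was called in opposite directions. It was called for 17 genes lower in prefrontal cortex, 2 higher and 31 lower in hippocampus, 8 higher and 3 lower in striatum and 2 lower in somatosensory cortex. The share of all genes called alike at both ages was not counted.

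Genes that supply or surround the chain were followed in lists drawn up by function, and their counts at 12 weeks stand beside the shares of all genes called given above (66.9% in thalamus, 67.8% in substantia nigra, 67.3% in striatum, 57% in prefrontal cortex and 54.4% in hippocampus). Of 17 tricarboxylic acid cycle genes, which feed NADH and succinate to the chain, 16 were higher in thalamus (median +0.42) and 16 in substantia nigra (+0.26) at 12 weeks, and 14 were lower and 0 higher in prefrontal cortex and 14 lower and 2 higher in hippocampus. Of 14 genes for electron carriers, nucleotide exchange and the ATP synthase inhibitor, 12 were higher and 1 lower in thalamus, and 2 and 11 in prefrontal cortex. Of 16 complex I assembly genes 11 were higher in thalamus, and of 35 tested assembly genes of the other complexes 28 were higher and 2 lower. Of the 17180 genes tested there, 5865 were higher and 5626 lower. The 19 genes of mitochondrial biogenesis and mt DNA expression were divided in thalamus, with 6 higher and 5 lower (median +0.09), fewer calls than the share of all genes. In striatum 10 of them were higher and 4 lower (+0.13). Glycolysis genes (17) were 10 higher and 3 lower in thalamus and 4 and 11 in hippocampus. Carrying an NRF1 motif did not go with a larger share of higher genes in thalamus: 4 of 20 genes with the motif were higher at both ages (20%) and 18 of 46 without it (39.1%). For ETS these were 4 of 16 (25%) and 18 of 50 (36%), and for YY1 3 of 10 (30%) and 19 of 56 (33.9%).

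The second question was how the set changed between 4 and 12 weeks in WT, in fits that also held the heterozygote and knockout libraries of the region for the estimate of spread. The ages came from different libraries, and all libraries with few whole numbers were from 4 weeks. Anything else that differed between the libraries of the ages cannot be told apart from age. In thalamus 48 of 96 tested genes rose and 0 fell, with 22.6% of all genes called. Hippocampus had 23 higher and 1 lower at 12 weeks (17.7% of all genes), striatum 11 and 2 (18.5%), prefrontal cortex 8 and 1 (19.1%), somatosensory cortex 5 and 11 (27.1%) and substantia nigra 1 and 7 (18.6%). The share was above that of all genes in thalamus and, less so, in hippocampus. In thalamus 37 of 83 nuclear and 11 of 13 mt genes rose, with an mt median of +0.81. In somatosensory cortex 6 of the 11 genes that fell were mt (median -0.54). The nuclear medians were +0.22 in thalamus, +0.15 in hippocampus, +0.07 in prefrontal cortex, +0.04 in striatum, +0.01 in somatosensory cortex and -0.35 in substantia nigra.

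Oligodendrocyte markers also moved with age, with 8 of 8 called lower at 12 weeks in somatosensory cortex, hippocampus, striatum and substantia nigra, 7 in thalamus and 2 in prefrontal cortex. Their summed level in WT went from 9970 to 30600 CPM at 4 weeks to 7600 to 12500 CPM at 12 weeks in thalamus, and from 23600 to 66400 CPM to 11400 to 14500 CPM in substantia nigra. In hippocampus the choroid plexus sum had a median of 605 CPM at 4 weeks and 3080 CPM at 12 weeks, with 0 of 6 markers called. The part of these cells in the age differences was not tested.

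The counts of members called depended on libraries at 4 weeks and on the fit. The shares of all genes called in the refits are not given, so the refit counts cannot be set against them. With only the WT libraries fitted, 0 genes were called in substantia nigra, 3 in prefrontal cortex, 9 in somatosensory cortex and 7 in striatum. The nuclear median in substantia nigra was +0.06 without the library labelled WT 92, and 29 genes were higher and 1 lower there without the libraries with few whole numbers. Without those libraries 31 genes were higher in prefrontal cortex, 41 higher and 3 lower in somatosensory cortex and 25 higher and 1 lower in striatum. Without libraries whose markers stood apart, 25 genes were higher in thalamus and 4 in substantia nigra. In prefrontal cortex 18 were called without 4-week library 914. In somatosensory cortex 8 were called without 4-week library 142 or 12-week library 4, and 10 without 12-week library 2. In substantia nigra 15 were called without 4-week library 142, 14 without 913, and 5, 2, 4, 4 and 2 without 12-week libraries 1 to 5 in that order.

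The thalamic rise of the mt genes was seen in single libraries. For mt-Nd2, a membrane-arm subunit of complex I, 4-week thalamus ran from 1100 through a median of 1249 to 1510 CPM. At 12 weeks its libraries had 1980, 2030, 2240, 3050 and 3140 CPM, with no overlap between the ages. The log2 fold change was +0.96 ± 0.23 (adjusted p = 0.00311, edgeR). For mt-Nd3, likewise of complex I, thalamus went from a range of 160 to 220 CPM to one of 278 to 609 CPM (+1.22 ± 0.24, adjusted p = 0.000607, edgeR). It also rose in prefrontal cortex (+1.05 ± 0.34) and hippocampus (+0.79 ± 0.23). The gene mt-Atp8, a small membrane subunit of complex V, rose by +1.49 ± 0.51 in thalamus with wide spread, from 58.6 to 130 CPM at 4 weeks and from 104 to 445 CPM at 12 weeks.

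The mt gene mt-Nd6, the complex I subunit transcribed from the opposite strand, had the largest fall among the mt genes. In somatosensory cortex it had 32.3, 36.9, 44.1, 47.4 and 50.3 CPM at 4 weeks. At 12 weeks it had 6.17, 9.42, 11.3, 12.5 and 13.2 CPM, so the ages did not overlap. The log2 fold change was -2.00 ± 0.25 (adjusted p = 6.82e-07, edgeR). In striatum mt-Nd6 fell by 1.03 on the log2 scale, from 27.1 to 43.6 CPM down to 10.5 to 27.1 CPM, so the ranges met at a single value. The gene mt-Nd4l fell in both regions too (-1.19 ± 0.26 and -0.69 ± 0.23).

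Among nuclear genes Ndufa12, an accessory subunit of complex I, rose in 5 of the 6 regions. In hippocampus it went from 41 through a median of 47.82 to 52.3 CPM at 4 weeks to 60.4, 64.7, 68.5, 69.6 and 71.9 CPM at 12 weeks, without overlap (+0.51 ± 0.07, adjusted p = 9.53e-06, edgeR). The changes of Ndufa12 were +0.61 in thalamus, +0.46 in somatosensory cortex, +0.45 in prefrontal cortex and +0.37 in striatum. Ndufb3, a membrane-arm accessory subunit, rose in prefrontal cortex (+0.38), somatosensory cortex (+0.27), hippocampus (+0.35), striatum (+0.34) and thalamus (+0.44). Atp5s, named as a coupling factor of complex V, rose in prefrontal cortex (+0.37), somatosensory cortex (+0.45), hippocampus (+0.44), thalamus (+0.39) and substantia nigra (+0.39). Cox4i2 rose in prefrontal cortex (+0.87) and striatum (+0.89) and Cox6b2 in somatosensory cortex (+0.76), striatum (+0.89) and thalamus (+0.88). Cox6a2 was lower at 12 weeks in hippocampus (-1.42 ± 0.45) and substantia nigra (-2.82 ± 0.94), the regions whose 4-week libraries 23 and 42 carried high thalamic scores.

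**Figure D4:**
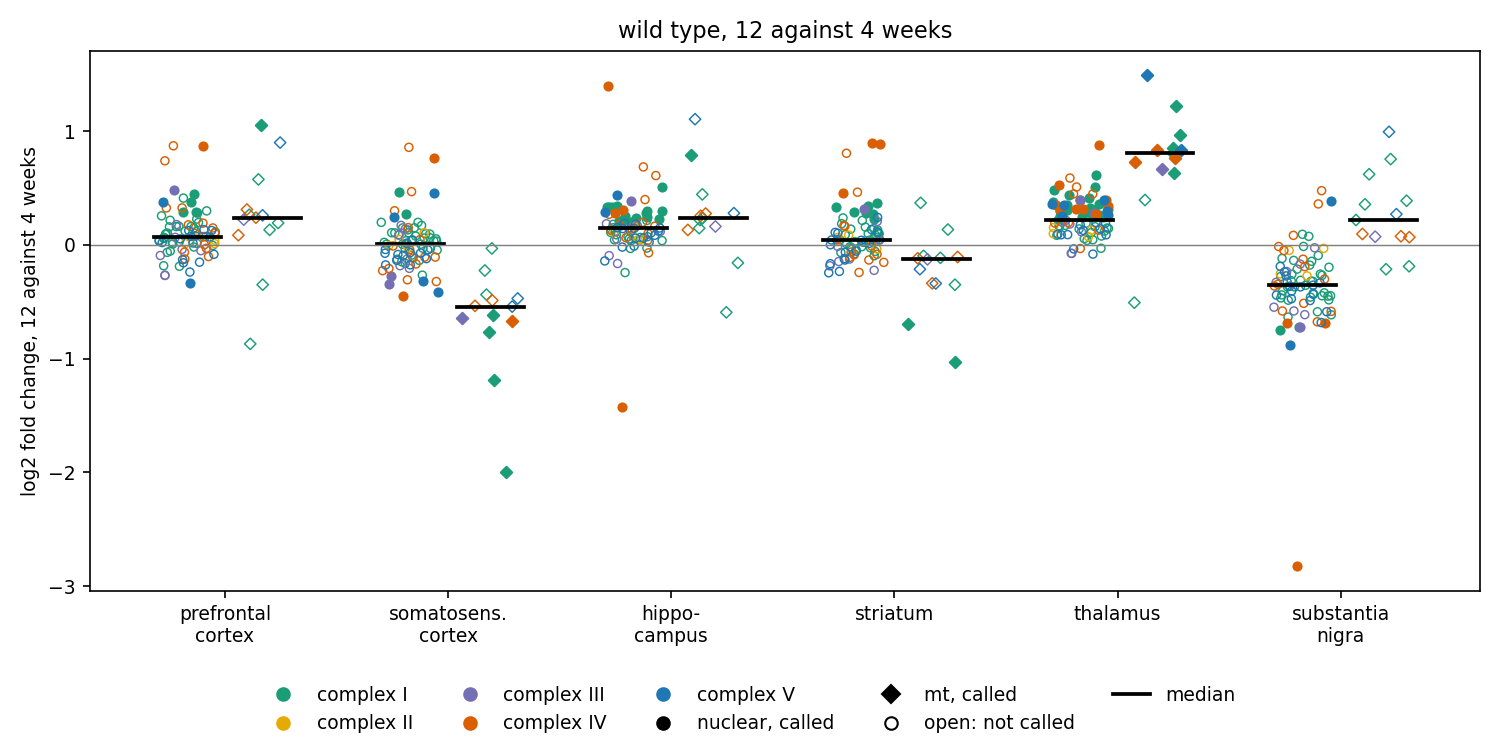
Log2 fold change of each tested gene of the set at 12 against 4 weeks in WT, by region. Circles are nuclear and diamonds mt genes coloured by complex, filled where called, and bars are medians. The mt median is +0.81 in thalamus and -0.54 in somatosensory cortex, where mt-Nd6 lies at -2.00.

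The third question was whether loss of Akap11 changed the set. No member was called in any of the 24 comparisons of knockout or heterozygote with WT. Small changes could have been missed. In counts simulated for the knockout in 12-week striatum, 10.1% of genes with a log2 change of 0.5 were recovered, and 70.4% with a change of 1. The simulation set a dispersion of 0.05 for every gene. That value was not estimated from these libraries, so the recovered shares need not hold for the members. In the real comparison the SE of the log2 fold change was 0.0622 for Ndufa5, 0.0711 for Cox5a and 0.153 for Cox4i2. Each genotype's 12 comparisons gave 1139 tests of members. By edgeR's quasi-likelihood test 55 of these had an unadjusted p under 0.05 in the knockout and 40 in the heterozygote, and the lowest adjusted p were 0.0537 and 0.209. The share of all genes with an unadjusted p under 0.05 differed widely between comparisons. It ran from 2.91% (12-week hippocampus) to 17.9% (4-week striatum) in the knockout. In the heterozygote it ran from 1.65% (12-week somatosensory cortex) to 16.3% (4-week thalamus). The comparisons with knockout and with heterozygote share their WT libraries. Among all genes the share called in the knockout at 4 weeks was 3.35% in striatum, 0.0564% in somatosensory cortex, 0.0128% in thalamus, 0.0125% in prefrontal cortex, 0.00617% in substantia nigra and 0.00609% in hippocampus. At 12 weeks it was 4.42% in striatum, 0.0364% in substantia nigra, 0.0252% in somatosensory cortex, 0.0123% in prefrontal cortex, 0.0064% in thalamus and 0.00608% in hippocampus. In the heterozygote at 4 weeks it was 0.00648% in striatum, 0.00639% in thalamus, 0.00627% in somatosensory cortex, 0.00626% in prefrontal cortex and 0% in hippocampus and in substantia nigra. At 12 weeks the heterozygote had 0.0064% in striatum, 0.0064% in thalamus, 0.00629% in somatosensory cortex, 0.00613% in prefrontal cortex, 0.00608% in hippocampus and 0.00606% in substantia nigra.

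In striatum, where the knockout called most genes, the nuclear median of the set was -0.09 at 4 weeks and +0.02 at 12 weeks, and the mt median was -0.38 and -0.08. At 4 weeks knockout libraries 51, 161 and 163 had cortical excitatory neuron scores of 6.56 to 7.3, and WT library 92 had 6.59, against 2.95 to 3.68 in the other WT libraries. In these 3 knockout libraries the summed striatal projection neuron markers were 6310 to 9370 CPM, against 10200 to 18600 in WT. Without these 4 libraries the 4-week medians were +0.05 for nuclear and -0.16 for mt genes. The smallest p belonged to Cox4i2 at 12 weeks. Its WT libraries had 1.99 to 2.77 CPM, the heterozygotes 1.76 to 2.47 and the knockouts 1.41, 1.61, 1.65, 1.7 and 2.04 CPM, so 4 of 5 knockout libraries were below every WT library. The log2 fold change of Cox4i2 was -0.55 ± 0.15 (adjusted p = 0.0537, edgeR). The adjusted p was 0.015 with DESeq2, 0.0489 with scaling on nuclear genes, 0.0463 without knockout library 4 and 0.0317 without WT library 3. These were the only alternatives that called it, and of 15 fits that each left out 1 library, 2 did so. At 4 weeks Cox6a2 had 2.27 to 3.77 CPM in WT and 3.57 to 4.37 CPM in the knockout (+0.38 ± 0.15, adjusted p = 0.166, edgeR). Ndufa1 stood at -0.31 ± 0.12 at 4 weeks (adjusted p = 0.171) and Ndufa5 at +0.17 ± 0.062 at 12 weeks (adjusted p = 0.165). A call on Ndufa1 at 4 weeks appeared without knockout library 12 (adjusted p = 0.0493), one on Ndufs6 without WT library 913 (0.0453) and one on Cox5a at 12 weeks with the replicate number as a block (-0.20, 0.0398).

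Outside striatum, in 4-week substantia nigra, all 81 nuclear genes tested were below 0 in the knockout (median -0.51) and 77 of 81 in the heterozygote (-0.36), with 0 called. Without the library labelled WT 92 these medians were -0.06 and +0.085. In the other regions and ages the nuclear medians in the knockout lay between -0.16 (prefrontal cortex, 4 weeks) and +0.09 (hippocampus, 4 weeks). Somatosensory cortex at 12 weeks had 16 nuclear genes of 81 with an unadjusted p under 0.05 in the knockout (3.89% of all genes), led by Cox5b (+0.18 ± 0.053, adjusted p = 0.941, edgeR) and Cox6a1 (+0.24 ± 0.079). The mt genes in 4-week somatosensory cortex of the heterozygote had a median of -0.55, with 8 of 13 at an unadjusted p under 0.05 (5.48% of all genes) and 0 called; its WT group held 2 of the libraries with few whole numbers and the heterozygote group none.

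Whether the knockout effect differed between ages or regions was tested directly. For the difference between 12 and 4 weeks, 0 members and 0% of all genes were called in each of the 6 regions (edgeR). When the striatal knockout effect was set against the average effect in the remaining 5 regions, 0 members were called, against 3.52% of all genes (619) at 4 weeks and 3.11% (555) at 12 weeks.

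**Figure D5:**
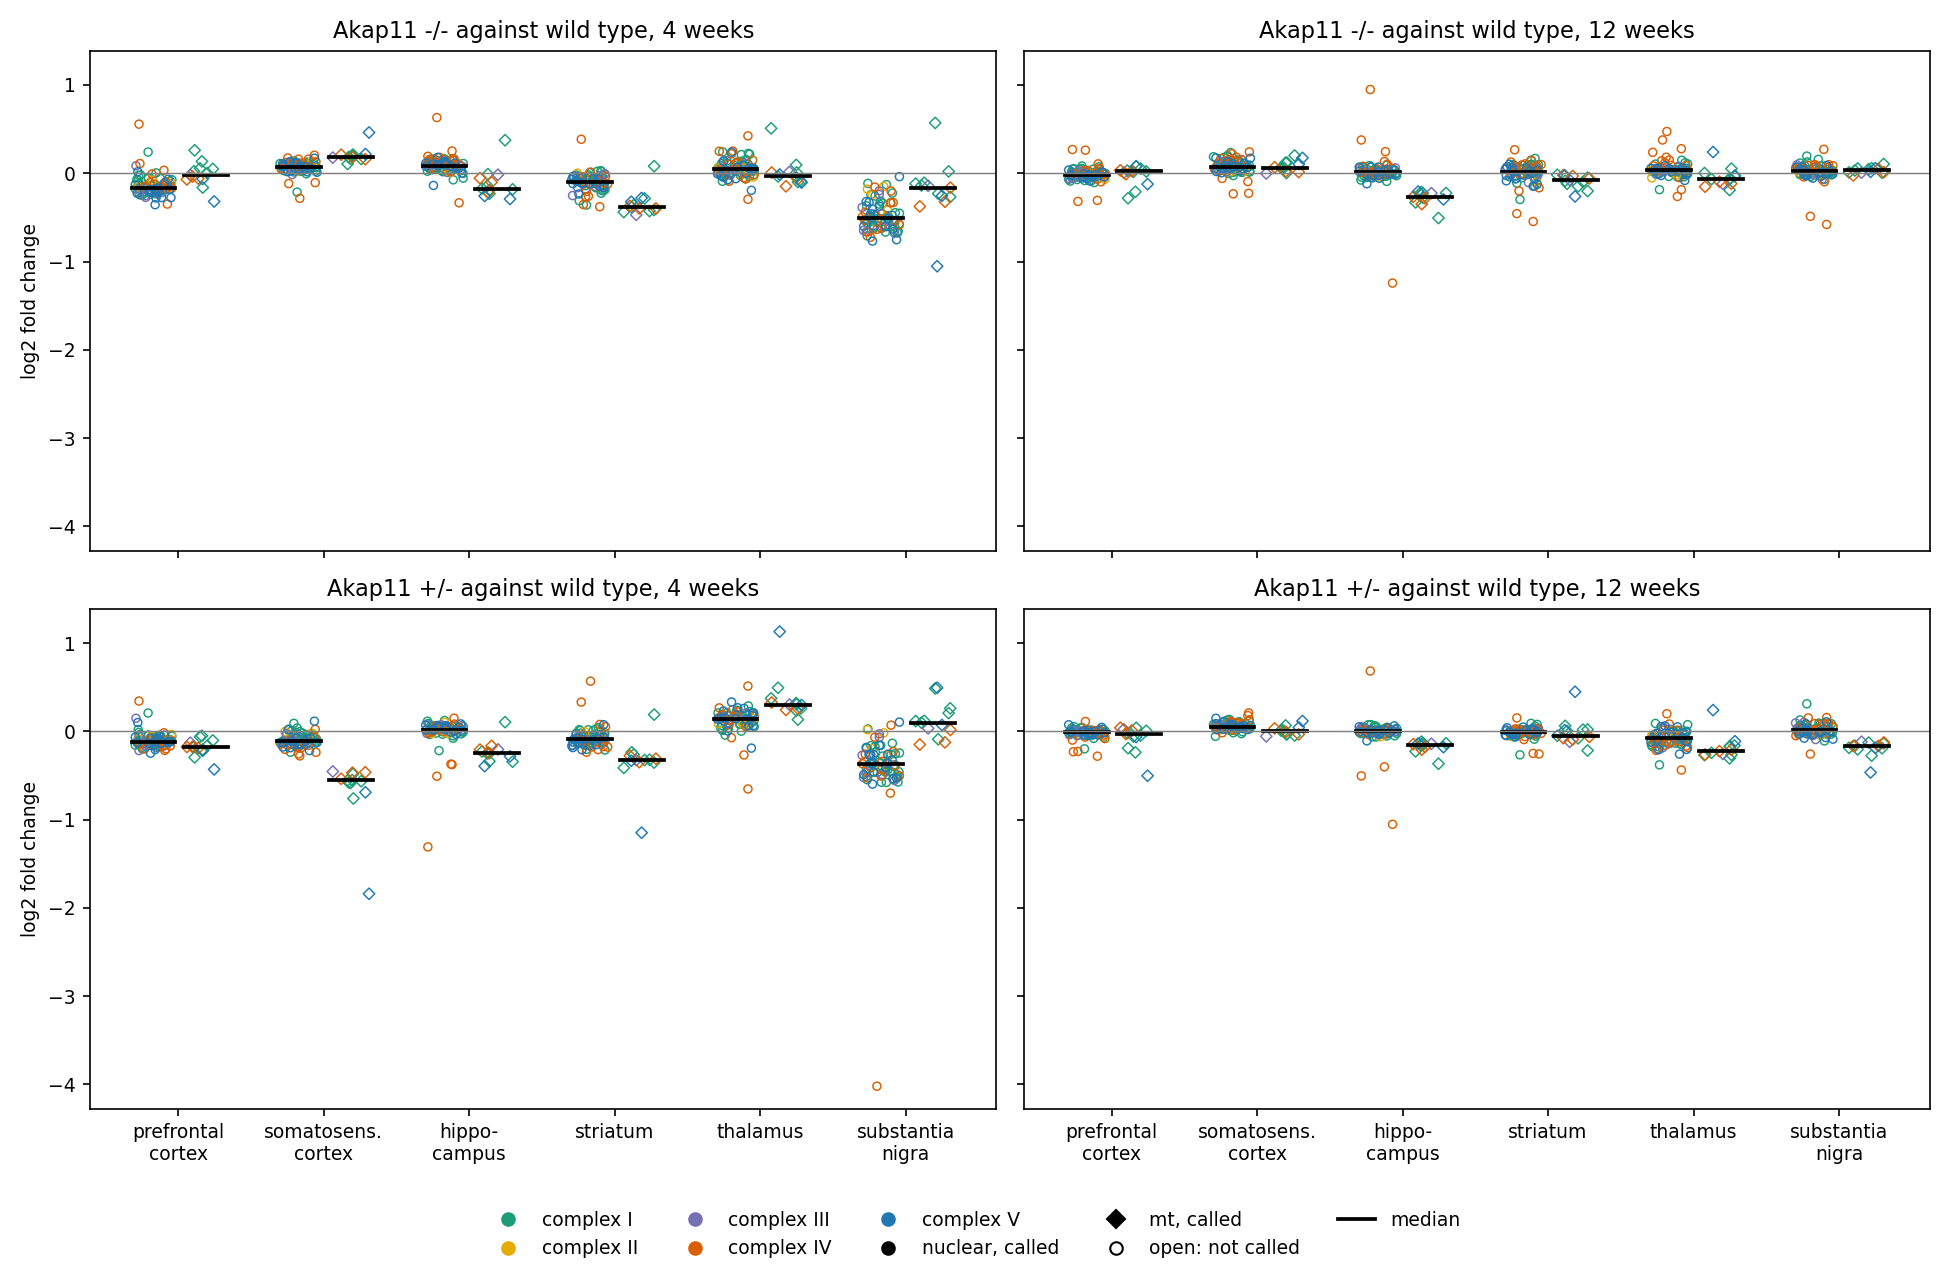
Log2 fold change of each tested gene of the set in the knockout (top) and heterozygote (bottom) against WT at 4 (left) and 12 weeks (right), by region. Circles are nuclear and diamonds mt genes coloured by complex, bars are medians, and every symbol is open because none was called. The nuclear median of 4-week substantia nigra is -0.51 in the knockout and -0.36 in the heterozygote with the library labelled WT 92.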

How the data were processed

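Expected counts per gene were deposited by the authors, who used Salmon and the mm10 build per the submitters' processing notes (no versions given). Regions were cut from frozen brain in a cryostat and 200 ng of total RNA per library entered a stranded mRNA kit, per the labels' protocols. The 186 columns were matched to samples by title. Expected counts were rounded to whole numbers and tested with edgeR 4.0.16 (R 4.3.3): TMM scaling, the filterByExpr filter, and the quasi-likelihood test (glmQLFit, glmQLFTest) with Benjamini-Hochberg adjustment over all genes of a comparison, called at an adjusted p under 0.05. SE is the log2 fold change divided by the root of F. Genotypes were compared within each region and age, ages within each region in WT (in a fit that held all 3 genotypes), and regions within each age in WT. CPM used library totals of 20.8 M to 73.3 M counts. The tests were checked on simulated data with a dispersion of 0.05 set for every gene, a value not estimated from these libraries. For knockout against WT in 12-week striatum, 10 of 99 genes changed by 0.5 on the log2 scale were recovered. Of those changed by 1, 69 of 98 were recovered.

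The members and the lists of related and marker genes were chosen with earlier results of these data known. Named genes were, per comparison, the 3 called members with the largest rise and the 3 with the largest fall at an average log2 CPM of at least 1, the genotype comparisons' 30 smallest p and each complex's smallest p in striatum, the highest and lowest per kilobase, the isoform sets and the 13 mt genes. Other members named were chosen after their values were seen. Alternatives were DESeq2 1.42.0, limma 3.58.1 (voom with a block), other scalings, no filter, a replicate block, other choices of libraries and leaving out each library. Sequences came from RefSeq tables. Of 95 members searched, 14 had a near copy among transcripts, and none of the 3 copies in the table exceeded 1% of its member.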

Additional observations from a re-analysis of the deposited data

Results flagged for a closer look

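In 7 of 72 tests of a group's nuclear or mt share of counts, 1 library stood apart from the others; chance gives about 1 in 20. In 4-week substantia nigra the library labelled WT 92 had a nuclear share of 2.397% (others 1.075% to 1.301%). In the same group WT library 914 had an mt share of 5.823% (others 2.594% to 3.504%), and heterozygote library 22 had 6.242% in its group (others 2.716% to 3.805%). In 4-week thalamus heterozygote library 11 had an mt share of 5.224% (others 2.644% to 3.039%). These 4 libraries are among the 16 with few whole numbers. In 4-week somatosensory cortex heterozygote library 931 had a nuclear share of 0.7811% (others 0.8678% to 0.9157%). At 12 weeks striatal heterozygote library 4 had an mt share of 6.19% (others 3.87% to 3.998%), and thalamic knockout library 4 a nuclear share of 1.516% (others 1.323% to 1.371%).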

How the results depend on the processing

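Counts of called members at 12 weeks between regions stayed within 1.5 times under every alternative run, and those at 4 weeks did not. All counts in this section are of members alone, without the share of all genes called in the same run. With libraries of all 3 genotypes the 4-week counts were 78 in thalamus, 56 in striatum, 88 in hippocampus, 28 in somatosensory cortex and 87 in prefrontal cortex. Without the libraries with few whole numbers they were 79, 45, 56, 24 and 62. Without those whose markers stood apart, an alternative chosen after seeing the data like the one before it, they were 70, 26, 68, 9 and 37, and 43 in substantia nigra. For age, fits on only the WT libraries called 9 in somatosensory cortex, 3 in prefrontal cortex, 7 in striatum and 0 in substantia nigra. Without the libraries with few whole numbers they called 44, 31, 26 and 30. Without those whose markers stood apart they called 25 in thalamus and 4 in substantia nigra, and with no low-count filter 5 in substantia nigra. For genotype, DESeq2 called 1 member in the 4-week thalamus of the heterozygote (Atp5d, +0.35, adjusted p = 0.0495) and 1 in the 12-week striatum of the knockout, as did scaling on nuclear genes. The value of Sdhc in 4-week striatum of the knockout turned to +0.0546 (from -0.12) without the libraries whose markers stood apart; the cause was not tested.

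With the replicate number as a replicate block, 29 members were called in 4-week prefrontal cortex, 5 in 4-week somatosensory cortex and 1 in the 12-week striatum of the knockout, and no other count moved by over 1.5 times. The numbers were not stated to pair libraries: deviations of same-numbered 12-week libraries of 2 genotypes correlated with a median of 0.151 (above 0.1 in 58 of 90 pairs), and other-numbered ones with -0.0315 (88 of 360). Between regions in WT the same number gave a median of 0.122 at 12 weeks (49 of 75) and 0.0285 at 4 weeks (31 of 76).

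Leaving out each library in turn gave, at 4 weeks, 16 to 68 in thalamus, 51 to 78 in substantia nigra, 11 to 27 in striatum, 12 to 69 in hippocampus, 1 to 8 in somatosensory cortex and 9 to 38 in prefrontal cortex. At 12 weeks the ranges, in this order, were 86 to 90, 61 to 66, 45 to 61, 59 to 75, 51 to 69 and 69 to 74. For age they were 34 to 52, 2 to 15, 10 to 15, 17 to 32, 8 to 19 and 6 to 18. For the knockout in striatum they were 0 to 1 at both ages, and in the other knockout and heterozygote comparisons 0 to 0. Of 535 values of named members under other alternatives, 499 kept direction and side of the threshold.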
